A study of Homo sapiens with 8 samples.

Results

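Pull-down with an antibody against 8-oxoguanine (8-oxoG) was compared with the input RNA in BEAS-2B cells that had breathed clean air only. The comparison used the 2 input libraries (CA_IN) and the 2 immunoprecipitated libraries (CA_IP) of the clean air cultures, 4 of the 8 libraries in the series. Its units were genes: the expected counts of all transcripts of a gene were summed, and genes with a rounded sum of at least 10 in at least 2 of these 4 libraries were tested, which kept 17644 of the 58735 genes in the tables.

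BEAS-2B is an established, immortalized line of human bronchial epithelial cells. The cells were grown on collagen-coated inserts, exposed at an air-liquid interface to humidified clean air for 2 h and harvested after 6 h of recovery. Formaldehyde cultures (FA_IN and FA_IP, 2 libraries each) received 1 ppm of the gas for the same time. All 8 libraries were made from total RNA that had been depleted of rRNA, and in each treatment the input and the pull-down were split from the same RNA pool. The 2 pools of a treatment are called RNA pool 1 and RNA pool 2 here, for the numbers 1 and 3 in the deposited names. The study's methods call the pull-downs biological duplicates, while the labels do not say whether the cultures were separate, so the p-values measure only the spread between these samples. The antibody was clone 15A3 in the study's methods and in the sample characteristics, while the extraction protocol in the labels names another clone.

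Guanine has the lowest redox potential of the RNA bases, and its main oxidation product is 8-oxoG. The antibody recognizes the modified base, and RNA is eluted from the beads by competition with the free modified nucleoside. A pull-down read is therefore a read of an RNA that was carried through this step, whether or not it held the modified base, and the input shows what each RNA contributes before it. Small nucleolar RNAs (snoRNAs) guide the chemical modification of rRNA, small Cajal body RNAs guide that of spliceosomal RNAs, and spliceosomal small nuclear RNAs (snRNAs) form the core of the splicing machinery. These RNAs are short, folded and held in proteins, and most lack a poly(A) tail.

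The input libraries held 45144392 and 38367404 expected counts and the pull-down libraries 21988393 and 19778568. Levels are given as CPM, the counts scaled to a common library size with TMM factors, and the test was the quasi-likelihood F test of edgeR, adjusted by Benjamini-Hochberg over all 17644 genes, with a threshold of 0.05. The fit held all 8 libraries in 4 groups. A second fit added the RNA pool as a block and is called the paired fit. It left 2 residual degrees of freedom, against 4 in the first fit. The p-values of the paired fit therefore lean more on the spread shared across genes, and very small ones should be read with caution. Epithelial markers were present: of 14 airway epithelial markers 10 were tested, led by KRT7, KRT17, KRT5 and KRT18, whereas SCGB1A1, FOXJ1, MUC5AC and NKX2-1, which mark differentiated airway cells, did not pass the filter. Of 10 mesenchymal markers 9 were tested, and FN1 (984 to 1030 CPM over the 4 clean air libraries) and VIM (812 to 1136 CPM) were at levels like those of the keratins. Of 10 markers of blood and endothelium, 2 passed, CD14 at 4.29 to 7.43 CPM and PECAM1 at 0.298 to 0.71 CPM over the 4 libraries.

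The fit without the block called far more genes lower than higher in the clean air pull-down, while the paired fit called more genes higher. Without the block, edgeR called 324 genes lower (1.84% of those tested) and 31 higher (0.176%). Since 2 sets of 4 genes had identical values, the 324 lower genes were 318 distinct ones. They had a median log2 fold change of -1.22, and 213 of them fell by more than 1 on the log2 scale. The 31 higher genes had a median of 0.47, and 5 of them rose by more than 1. For each of the 355 calls, both CA_IP libraries lay beyond both CA_IN libraries. Such a lack of overlap was frequent among all genes: both CA_IP libraries lay above both CA_IN libraries for 23.2% of the genes tested and below them for 18.5%.

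The paired fit called 2162 genes higher (12.3%) and 1127 lower (6.39%), among them every one of the 31 and the 324. Scaling to library size alone moved the median log2 fold change over all genes up by 0.15 and turned the split into 857 higher and 336 lower, so that small differences have no fixed sign and are read here relative to the median gene.

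The lower genes were concentrated in a few kinds of RNA. Small noncoding RNAs (snRNAs, snoRNAs, small Cajal body RNAs and RNAs made by RNA polymerase III) supplied 83 of the 324 lower genes out of 127 tested. Mitochondrially encoded genes supplied 7 of 15, histone genes 18 of 67, cytosolic ribosomal protein genes 39 of 80 and nuclear genes for oxidative phosphorylation 29 of 75. Another 126 lower genes were other protein-coding genes, out of 13411, and 90 of these had a transcript under 1000 nt. Of the other protein-coding genes 707 fell and 2064 rose in the paired fit. Over all classes, the lower genes had a median transcript length of 570 nt against 2622 nt for all genes tested, and 273 of the 324 were under 1000 nt, as were 2352 of the 17644.

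**Figure D1:**
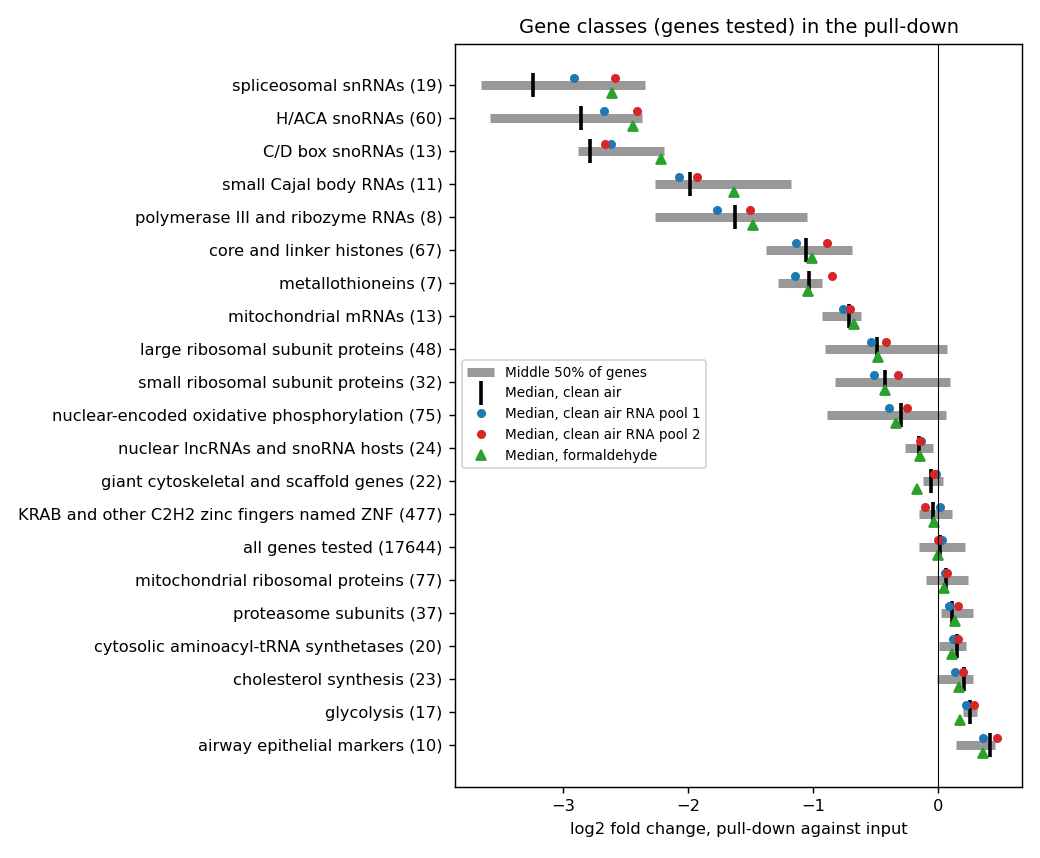
Log2 fold change of pull-down against input (horizontal axis) for gene classes (vertical axis, number of genes tested in brackets). Gray bars hold the middle 50% of the genes, black ticks mark the median of the fit in clean air, blue and red points mark the medians of RNA pools 1 and 2 on log2 CPM with a prior count of 2, and green triangles mark the median after formaldehyde. Spliceosomal snRNAs lie lowest, at a median of -3.24, and airway epithelial markers highest, at 0.42.

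The sequences of 5 of the small RNAs that fell are shown so that their size and guanine content can be seen beside their levels. They are whole reference transcripts from GENCODE 44 (GRCh38), written in DNA letters 5′ to 3′, with guanines in capitals. RNU4-1 (U4 snRNA, chr12:120293097-120293237, minus strand, 141 bases) had 24.1% guanine. RNU2-2P (a U2 snRNA gene, chr11:62841619-62841809, minus strand, 191 bases) had 21.5%. SNORA73A (an H/ACA snoRNA, chr1:28507366-28507571, plus strand, 206 bases) had 26.2%. SNORD17 (a C/D box snoRNA, chr20:17962710-17962946, minus strand, 237 bases) had 27% and RMRP (the RNA of RNase MRP, chr9:35657754-35658017, minus strand, 264 bases) 28%. The tested genes had a median guanine share of 24.6% and a median length of 2622 nt. Other small RNAs that fell lay further from that guanine share on both sides, such as SNORA63 at 19.7% and SCARNA2 at 36.7%.
RNU4-1: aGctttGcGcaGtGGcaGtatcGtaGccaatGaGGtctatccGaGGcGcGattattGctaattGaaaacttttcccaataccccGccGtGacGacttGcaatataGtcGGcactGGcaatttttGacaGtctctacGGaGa
RNU2-2P: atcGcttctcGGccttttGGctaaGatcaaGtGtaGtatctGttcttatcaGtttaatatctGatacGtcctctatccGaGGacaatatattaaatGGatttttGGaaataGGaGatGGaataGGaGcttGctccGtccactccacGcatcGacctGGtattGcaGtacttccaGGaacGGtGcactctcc
SNORA73A: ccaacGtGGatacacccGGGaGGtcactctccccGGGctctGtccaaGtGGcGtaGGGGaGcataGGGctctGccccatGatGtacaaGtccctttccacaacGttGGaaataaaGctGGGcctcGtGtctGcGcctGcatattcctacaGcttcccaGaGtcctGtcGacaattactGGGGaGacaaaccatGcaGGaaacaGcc
SNORD17: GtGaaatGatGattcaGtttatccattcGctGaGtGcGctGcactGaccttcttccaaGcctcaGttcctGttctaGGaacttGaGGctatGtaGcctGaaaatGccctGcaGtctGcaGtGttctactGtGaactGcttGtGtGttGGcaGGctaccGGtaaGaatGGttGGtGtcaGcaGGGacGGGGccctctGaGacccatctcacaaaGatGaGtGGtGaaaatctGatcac
RMRP: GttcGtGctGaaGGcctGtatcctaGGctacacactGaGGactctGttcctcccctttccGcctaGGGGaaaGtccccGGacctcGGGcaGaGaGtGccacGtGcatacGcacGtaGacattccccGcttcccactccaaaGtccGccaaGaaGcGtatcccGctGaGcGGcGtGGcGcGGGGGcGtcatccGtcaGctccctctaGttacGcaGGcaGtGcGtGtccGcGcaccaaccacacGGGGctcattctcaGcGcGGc

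Spliceosomal snRNAs had the lowest median of the lists in the fit, although in RNA pool 2 alone C/D box snoRNAs were lower (-2.66 against -2.58). Of the 19 snRNA genes of the list that were tested, 17 fell and none rose, with a median log2 fold change of -3.24 and a range from -5.08 to -1.5. In the paired fit all 19 fell. These counts include U1 copies with identical values, which are described with the U1 genes. RNU2-2P was at 440 and 476 CPM in the input and at 42.6 and 50.6 CPM in the pull-down, a log2 fold change of -3.3 ± 0.18 (SE, n = 2 against 2, edgeR adjusted p = 5.28e-05). The 2 groups were far apart and the spread within each was small. RNU4-1 was at 28.2 and 32.2 CPM in the input and at 1.69 and 2.51 CPM in the pull-down (log2 fold change -3.85 ± 0.26, edgeR adjusted p = 0.000151), and its neighbor RNU4-2 at 49.9 and 50.5 against 3.12 and 4.24 CPM (-3.77 ± 0.36, edgeR adjusted p = 0.000704). Both encode the U4 snRNA. RNVU1-7, a variant of the U1 snRNA, was at 116 and 155 against 10.8 and 13.5 CPM (-3.48 ± 0.17, edgeR adjusted p = 5.28e-05).

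The U1 snRNA recognizes the 5′ splice site and is encoded by many near-identical copies, between which reads cannot be assigned with certainty. RNU1-1, RNU1-3, RNU1-28P and a gene without a symbol had identical values in every library (71.8 and 96.8 against 1.9 and 3.13 CPM), as did RNU1-2, RNU1-4, RNU1-27P and RNVU1-29 (99.9 and 94.8 against 15.2 and 29 CPM). The log2 fold changes of these 2 sets, -5.08 and -2.14, are uncertain for that reason. Summed over 13 U1 genes and variants, the level was 861 and 996 CPM in the input and 82.5 and 148 CPM in the pull-down, a log2 ratio of -3.38 in pool 1 and -2.75 in pool 2. The sum does not depend on how the reads were divided among the copies, and it was low in both pull-down libraries.

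All 60 H/ACA snoRNAs tested, which guide pseudouridylation, and all 13 C/D box snoRNAs tested, which mostly guide 2′-O-methylation, were below their input level in both pull-down libraries. Of the H/ACA snoRNAs 42 fell (median log2 fold change -2.86, range -6.87 to -1.45), and 54 fell in the paired fit. The C/D box snoRNAs had 7 that fell (median -2.78, range -6.99 to -0.6) and 12 in the paired fit. SNORD3A, the U3 snoRNA needed to process the precursor of 18S rRNA, was the most abundant of them at 6955 and 8896 CPM in the input and 999.8 and 1146 CPM in the pull-down (log2 fold change -2.88 ± 0.15, n = 2 against 2, edgeR adjusted p = 5.28e-05). The U3 gene has several copies, and their summed ratio was -2.79 in pool 1 and -2.95 in pool 2. SNORD17 was at 90 and 120 CPM in the input and at 10.3 and 15.6 CPM in the pull-down. SNORA73A, an H/ACA snoRNA also called U17, was at 354 and 431 CPM against 45.8 and 52.8 CPM, and its relative SNORA73B at 150 and 185 against 36 and 45.4 CPM. Both stayed apart from input, with edgeR adjusted p-values of 5.39e-05 and 0.000435.

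SNORA63, SNORA53 and SNORA23 were the H/ACA snoRNAs with the lowest fold change among those at a mean of at least 5 CPM. SNORA63 was at 20.8 and 22.8 CPM in the input and at 0.927 and 1.78 CPM in the pull-down (log2 fold change -4.02 ± 0.39, edgeR adjusted p = 0.000721). SNORA53 and SNORA23 had log2 fold changes of -3.68 ± 0.25 and -3.67 ± 0.27. All 75 genes annotated as snoRNA had both CA_IP libraries below both CA_IN libraries, against 18.5% of all genes.

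Small Cajal body RNAs had a median nearer to 0. Of 11 tested, 8 fell, with a median log2 fold change of -1.98. SCARNA2, the longest of the 4 most abundant at 420 nt, was at 536 and 662 CPM in the input and at 214 and 308 CPM in the pull-down (-1.2 ± 0.17, edgeR adjusted p = 0.00636). SCARNA13 and SCARNA12 had log2 fold changes of -1.09 ± 0.18 and -1.51 ± 0.15. SCARNA10 was lower, at 270 and 305 against 59.7 and 73.9 CPM (-2.11 ± 0.13, edgeR adjusted p = 8.09e-05).

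Among the RNAs made by RNA polymerase III, which include the RNAs of RNase P, RNase MRP, the signal recognition particle and the 7SK particle that holds back transcription elongation, 5 of 8 fell and 7 did so in the paired fit. RN7SK was at 20412 and 21018 CPM in the input and at 6838 and 8426 CPM in the pull-down (log2 fold change -1.44 ± 0.16, edgeR adjusted p = 0.00155). RPPH1, the RNase P RNA, went from 8511 and 9610 CPM to 2198 and 2991 CPM (-1.8 ± 0.17), and RMRP from 3702 and 4290 CPM to 726 and 951 CPM (-2.25 ± 0.17, edgeR adjusted p = 0.000273). These 3 RNAs had no overlap between the groups, and 18.5% of all genes tested also had both CA_IP libraries below both CA_IN libraries.

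The RNA of the signal recognition particle, which docks ribosomes at the endoplasmic reticulum, is encoded by RN7SL1 and RN7SL2, which are nearly identical. RN7SL2 was at 38557 and 40405 CPM in the input and at 15343 and 18958 CPM in the pull-down (-1.2 ± 0.15, edgeR adjusted p = 0.00327), whereas RN7SL1 was at 45060 and 47338 against 39372 and 47585 CPM (-0.09 ± 0.15, edgeR adjusted p = 0.883). The sign of the RN7SL1 difference turned with library size scaling. Since reads of the 2 copies cannot be told apart with certainty, their sum is the safer measure: 83617 and 87742 CPM in the input and 54715 and 66543 CPM in the pull-down, a log2 ratio of -0.61 in pool 1 and -0.4 in pool 2. The whole list took 11.3% and 11.8% of all counts in the input and 6.98% and 8.31% in the pull-down.

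**Figure D2:**
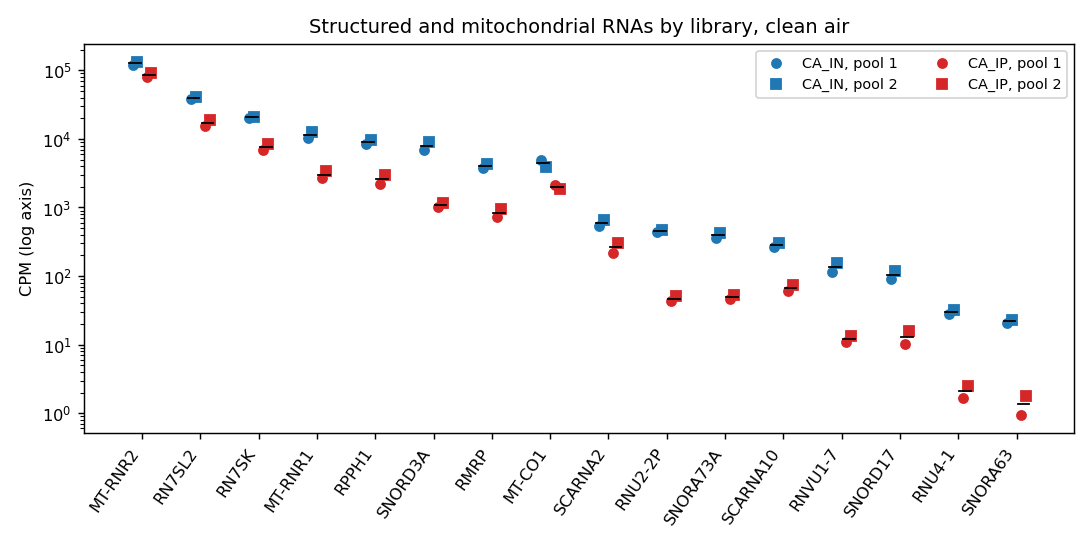
CPM on a log axis (vertical) for 16 structured or mitochondrial RNAs (horizontal) in the 4 clean air libraries. Blue symbols are CA_IN and red symbols CA_IP, circles are RNA pool 1 and squares RNA pool 2, and black lines are group means. In each of the 16 both CA_IP symbols lie below both CA_IN symbols, as for SNORD3A at 6955 and 8896 against 999.8 and 1146 CPM. Among all genes tested 18.5% had this order. RN7SL1, which is not shown, overlapped between the groups (45060 and 47338 against 39372 and 47585 CPM).

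The mean fragment length that RSEM used was 216.8 and 216.9 nt in CA_IN and 219.6 and 210.1 nt in CA_IP, longer than most of the snRNAs and snoRNAs named above. Transcripts under 300 nt took 5.995% and 6.41% of the counts in CA_IN and 4.587% and 5.395% in CA_IP. The part of fragment length in these differences was not tested. With an offset for the effective length of each gene in each library, 356 genes were lower, 322 of them among the 324.

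The mitochondrial genome gave lower values throughout. It encodes 13 subunits of the respiratory chain and ATP synthase, 2 rRNAs and the tRNAs, and all 13 mRNAs were below the input in both pools (median log2 fold change -0.71, range -1.65 to -0.49). Of these 6 fell, and all 13 in the paired fit. MT-CO3, a subunit of cytochrome c oxidase, was at 2567 and 2107 CPM in the input and at 780 and 713 CPM in the pull-down (-1.65 ± 0.14, edgeR adjusted p = 0.000365). MT-CO1 went from 4980 and 3944 to 2142 and 1851 CPM (-1.16 ± 0.16), MT-CO2 from 832 and 617 to 428 and 336 CPM (-0.92 ± 0.17) and MT-CYB, of cytochrome b, from 690 and 598 to 385 and 367 CPM (-0.78 ± 0.1). These transcripts are poor in guanine, with a median share of 11.7%. Across the 13 mRNAs the log2 fold change had a Spearman correlation of -0.25 with guanine share and 0.13 with length, given as a description.

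The 2 mitochondrial rRNAs differed from each other. MT-RNR1, the 12S rRNA, was at 10146 and 12453 CPM in the input and at 2670 and 3365 CPM in the pull-down (-1.91 ± 0.14, edgeR adjusted p = 0.000243). MT-RNR2, the 16S rRNA and the most abundant gene of the input, was at 118396 and 133632 against 80913 and 90092 CPM (-0.56 ± 0.13, edgeR adjusted p = 0.0841, and 2e-08 in the paired fit). Together they took 12.4% and 13.9% of the counts in the input and 9.02% and 9.8% in the pull-down.

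Histone genes, whose replication-dependent members make mRNAs that end in a stem-loop without a poly(A) tail, were mostly low. Of 67 tested 18 fell and 54 fell in the paired fit, with a median log2 fold change of -1.06. For the core histones the medians were -1.01 for 14 H2A genes, -1.14 for 20 H2B genes, -0.97 for 11 H3 genes and -1.37 for 13 H4 genes, of which 3, 6, 2 and 7 fell. The 9 linker histone genes had a median of 0.05, and 2 rose and 2 fell in the paired fit. Among all genes 12.3% rose and 6.39% fell in that fit. The 9 include H1-8P1, a pseudogene by its symbol, which was named for that reason. The difference between linker and core genes was not tested. H4C3 was at 236 and 218 CPM in the input and at 55.9 and 61.1 CPM in the pull-down (-1.96 ± 0.21, edgeR adjusted p = 0.00121), and H4C11 at 245 and 200 against 65.8 and 56.3 CPM. H4C14 (282 and 222 against 115 and 116 CPM) and H3C14 (244 and 188 against 77.5 and 144 CPM) did not pass the threshold, with edgeR adjusted p-values of 0.07 and 0.578, and passed in the paired fit at 7.75e-12 and 8.59e-05. Histone genes resemble each other closely, so single values are uncertain. Across the 67 genes the log2 fold change had a Spearman correlation of 0.32 with length and 0.07 with guanine share. The H4 genes summed to 1291 and 1082 CPM in the input and 497 and 502 CPM in the pull-down.

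Ribosomal proteins build the cytosolic ribosome, and about as many of their genes fell as did not. Of 48 large-subunit genes 24 fell (median log2 fold change -0.48), of 32 small-subunit genes 15 fell (-0.42), and none of the 80 rose. In the paired fit 48 fell and 9 rose, beside 6.39% that fell and 12.3% that rose among all genes. The 39 genes that fell had a median length of 588 nt and the other 41 of 794 nt. Across the 80 genes, the log2 fold change had a Spearman correlation of 0.53 with length and, over the 79 with a sequence, of 0.42 with guanine share, given as a description, since the genes share the libraries. RPL39 was lowest, at 493 and 504 CPM in the input and 116 and 126 CPM in the pull-down (-2.04 ± 0.09, edgeR adjusted p = 5.28e-05), and was named after its value was seen. Some of the most abundant members did not pass the threshold. RPL4 was at 2286 and 2419 against 2592 and 2854 CPM (0.21 ± 0.09, edgeR adjusted p = 0.368), RPS6 at 1808 and 1871 against 2175 and 2404 CPM (0.32 ± 0.09, edgeR adjusted p = 0.173) and RPSA at 1574 and 1614 against 1169 and 1346 CPM (-0.34 ± 0.1, edgeR adjusted p = 0.14). In the paired fit RPL4 and RPS6 rose and RPSA fell (adjusted p = 0.0114, 0.000466 and 0.000248).

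Nuclear genes for oxidative phosphorylation, which encode the other subunits of the complexes that the mitochondrial genome contributes to, gave 29 that fell and 1 that rose out of 75 (median log2 fold change -0.3), and 41 that fell and 14 that rose in the paired fit. Among all genes 6.39% fell and 12.3% rose in the paired fit. The 29 genes that fell in the first fit had a median length of 635 nt and the other 46 of 994 nt. Across the 75 genes the Spearman correlation of the log2 fold change was 0.46 with length and 0.38 with guanine share. COX7C, a small subunit of cytochrome c oxidase, was at 320 and 352 CPM in the input and at 214 and 264 CPM in the pull-down (-0.49 ± 0.14, edgeR adjusted p = 0.138, and 3.62e-06 in the paired fit). UQCRC1, a large core subunit of complex III, was at 263 and 267 against 328 and 376 CPM (0.41 ± 0.09, edgeR adjusted p = 0.0579, and 4.67e-05 in the paired fit).

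Among 2 families with short mRNAs a part of the genes fell. Of 7 genes on the list of metallothioneins, which are small metal-binding proteins, 3 fell and 5 did so in the paired fit. All 7 had a log2 fold change below 0 (median -1.03). MT2A was at 960 and 1074 CPM in the input and at 393 and 522 CPM in the pull-down (-1.15 ± 0.13, edgeR adjusted p = 0.00162). MT1E (-1.41 ± 0.27) and MT1L (-1.62 ± 0.15) fell as well. MT1L is annotated as a transcribed pseudogene, so its reads are uncertain. MT1X, at 209 and 296 against 96.9 and 167 CPM, did not (edgeR adjusted p = 0.18, and 4.2e-11 in the paired fit). Of 14 S100 genes, which encode small calcium-binding proteins, 3 fell, among them S100A6 (425 and 372 against 185 and 186 CPM, edgeR adjusted p = 0.000519). The paired fit had 5 S100 genes that fell and 1 that rose, S100A14 (132 and 151 against 144 and 181 CPM). Among all genes it called 6.39% lower and 12.3% higher. S100A2, the most abundant, was at 797 and 797 against 656 and 796 CPM (-0.13 ± 0.14, edgeR adjusted p = 0.767).

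Over all 13642 protein-coding genes, the log2 fold change rose with transcript length up to 1500 to 2000 nt and then declined. The 36 genes under 400 nt had a median of -1.08 and 18 of them fell. The median was -0.66 for 156 genes of 400 to 600 nt, -0.15 for 295 genes of 600 to 800 nt and 0.15 for 1605 genes of 1500 to 2000 nt. It was -0.11 for 437 genes of 10000 nt or more, none of which passed the threshold. Both pools had the same order at the short end, with medians of -1.17 and -0.97 under 400 nt.

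**Figure D3:**
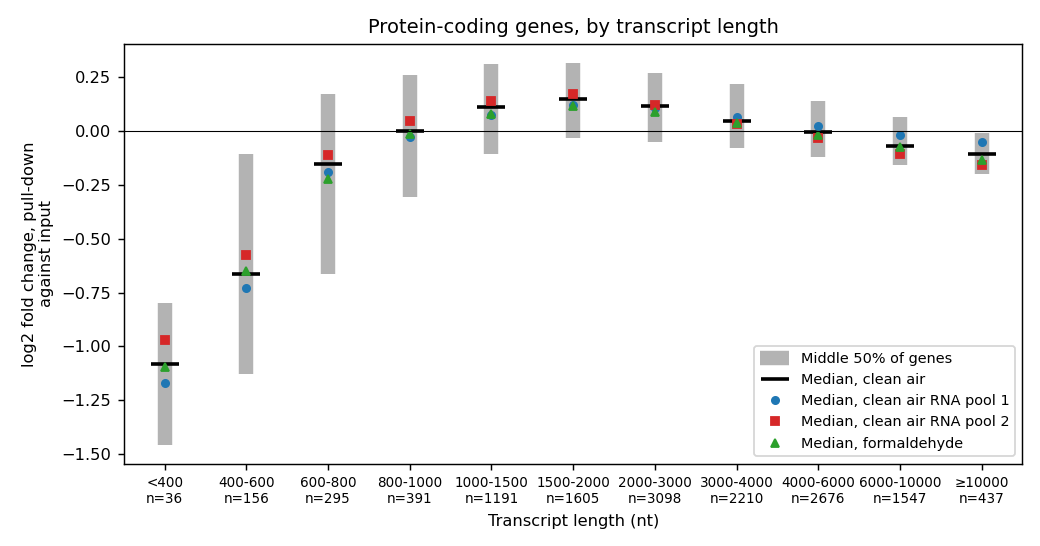
Log2 fold change of pull-down against input (vertical axis) by transcript length in nt (horizontal axis, with the number of protein-coding genes). Gray bars hold the middle 50% of the genes and black lines the clean air median, with medians of RNA pool 1 (blue circles), RNA pool 2 (red squares) and formaldehyde (green triangles). The clean air median climbs from -1.08 under 400 nt to 0.15 at 1500 to 2000 nt.

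The genes higher in the pull-down were mostly protein-coding genes with modest differences. Of the 31, 26 had a mean of at least 5 CPM, with log2 fold changes between 0.38 and 0.73, which is 1.3-fold to 1.66-fold. Their transcripts were rich in guanine: the share ran from 27.4% to 35.3% with a median of 31.4%, above the median of all genes for 26 of 26 and above their 90th percentile (30.7%) for 16. The first 120 coding bases of 4 genes that rose and of 3 genes that fell are shown so that these compositions can be compared. They were read from GENCODE 44 transcripts (GRCh38) and have guanines in capitals. THSD8 (chr19:12802031-12813581, plus strand), CCDC124 (chr19:17933015-17943991, plus strand) and TRAPPC5 (chr19:7680833-7687703, plus strand) share a chromosome, and SFN lies at chr1:26863149-26864456, plus strand. Their first 120 coding bases held 35% to 38.3% guanine. H4C3 (chr6:26103933-26104337, plus strand) held 35%, RPL39 (chrX:119786504-119791630, minus strand) 17.5% and MT-CO3 (mitochondrial genome, positions 9207 to 9990) 13.3%. In this stretch H4C3, which fell, had a guanine share like that of the genes that rose. Over the whole transcript its share was lower, at 27.9% against 30.7% to 35% for those 4 genes.
THSD8: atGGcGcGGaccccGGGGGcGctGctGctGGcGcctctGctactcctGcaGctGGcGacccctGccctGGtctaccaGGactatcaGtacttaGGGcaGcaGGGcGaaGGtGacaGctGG
CCDC124: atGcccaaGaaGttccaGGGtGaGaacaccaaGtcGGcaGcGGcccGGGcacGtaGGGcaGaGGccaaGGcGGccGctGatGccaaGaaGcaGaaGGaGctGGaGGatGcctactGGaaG
TRAPPC5: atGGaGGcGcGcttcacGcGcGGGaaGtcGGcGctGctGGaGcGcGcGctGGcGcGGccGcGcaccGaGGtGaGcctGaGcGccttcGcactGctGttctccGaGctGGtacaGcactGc
SFN: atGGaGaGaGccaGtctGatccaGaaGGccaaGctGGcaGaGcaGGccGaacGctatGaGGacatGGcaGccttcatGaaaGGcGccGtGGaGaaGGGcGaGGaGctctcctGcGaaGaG
H4C3: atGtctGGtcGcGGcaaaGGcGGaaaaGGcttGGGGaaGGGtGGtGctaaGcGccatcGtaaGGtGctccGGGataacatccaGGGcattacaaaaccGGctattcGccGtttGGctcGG
RPL39: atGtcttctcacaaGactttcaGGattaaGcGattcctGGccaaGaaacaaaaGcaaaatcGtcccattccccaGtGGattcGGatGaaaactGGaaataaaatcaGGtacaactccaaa
MT-CO3: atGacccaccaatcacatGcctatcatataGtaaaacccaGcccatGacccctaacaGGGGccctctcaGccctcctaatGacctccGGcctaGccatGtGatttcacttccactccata

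THSD8 was at 21 and 17.4 CPM in the input and at 32.6 and 31.2 CPM in the pull-down (log2 fold change 0.73 ± 0.14, edgeR adjusted p = 0.0321). CCDC124, which binds ribosomes, was at 26.2 and 23.3 against 36.3 and 38.7 CPM (0.6 ± 0.11, edgeR adjusted p = 0.0301). TRAPPC5, a subunit of a vesicle tethering complex, was at 26 and 25.1 against 35.6 and 40.8 CPM (0.58 ± 0.11, edgeR adjusted p = 0.036). A lack of overlap between the groups was a condition for naming these 3 genes. Among all genes tested, 23.2% had both CA_IP libraries above both CA_IN libraries.

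EEF1D, a subunit of the elongation factor complex that reloads EEF1A with GTP, was at 422 and 418 CPM in the input and at 563 and 634 CPM in the pull-down (0.51 ± 0.09, edgeR adjusted p = 0.0195). SFN, the epithelial 14-3-3 protein sigma, was at 178 and 178 against 238 and 268 CPM (0.51 ± 0.1, edgeR adjusted p = 0.0404). The other genes of the 10 with the highest fold change were HMGB1P6 (0.59), FBXW5 (0.5), ETFB (0.5), MRPL28 (0.49) and FPGS (0.49). HMGB1P6 is a processed pseudogene that resembles HMGB1, so its reads are uncertain. ETFB passes electrons from fatty acid oxidation to the respiratory chain, MRPL28 is a protein of the mitochondrial ribosome and FPGS retains folates in the cell. KRT8, a keratin of simple epithelia, was at 435 and 428 against 554 and 594 CPM (0.41 ± 0.08, edgeR adjusted p = 0.036).

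**Figure D4:**
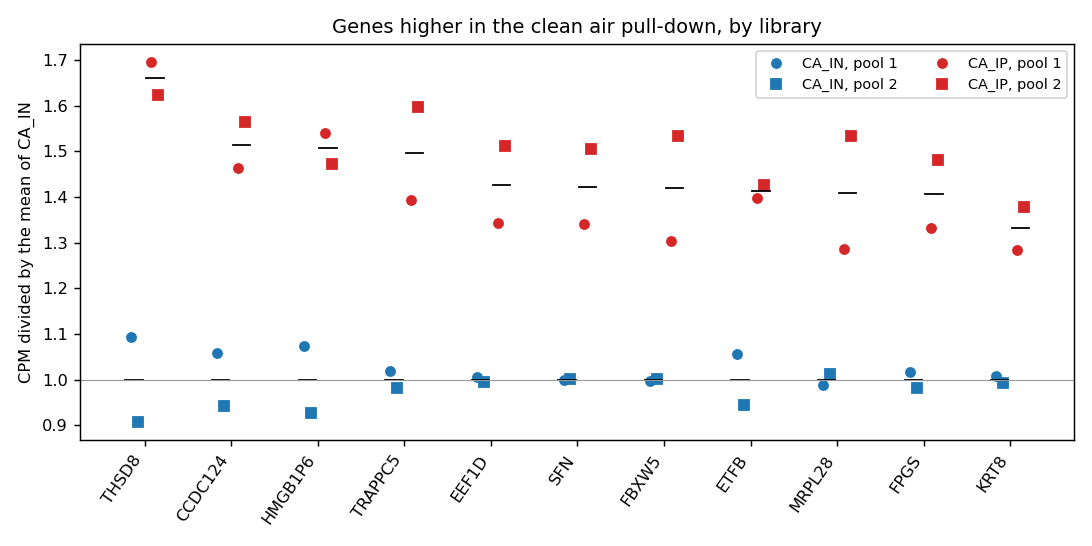
CPM divided by the mean of the 2 CA_IN libraries (vertical axis, which does not start at 0) for 11 genes higher in the pull-down (horizontal axis). Blue symbols are CA_IN and red symbols CA_IP, circles are RNA pool 1 and squares RNA pool 2, and black lines are group means. For each gene both red symbols lie above both blue ones, as for EEF1D at 563 and 634 against 422 and 418 CPM.

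With a single clean air library left out, 3 (without CA_IP replicate 2) to 16 (without CA_IP replicate 1) genes were higher, 6 without CA_IN replicate 1 and 8 without CA_IN replicate 2, and 189 (without CA_IP replicate 1) to 249 were lower, 215 without CA_IN replicate 1. Among the 31, 3 genes had almost no reads in the input. SLC2A3P1, a pseudogene of a glucose transporter, had 0 counts in both CA_IN libraries and 74 and 70 counts in CA_IP, at least 43.1-fold higher against a floor of 3 counts per library, but 0 and 7 counts in FA_IP. ARHGAP19-SLIT1, a readthrough gene, had 2 and 2 counts against 31 and 41, a ratio of 32.5 with a 95% counting interval of 12.2 to 122, and no count in FA_IP. Both share sequence with a parent gene, so their reads are uncertain. ENSG00000285238, a protein-coding gene without a symbol, had 0 and 1 counts against 310 and 141, a ratio of 814 with a 95% counting interval of 145 to 32205, and 0 and 0 counts in FA_IN against 13 and 13 in FA_IP. These 3 genes were named after their values were seen.

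The 10 genes that gained most in absolute level were 9 abundant mRNAs and a long noncoding RNA without a symbol, and none passed the threshold of the first fit. The noncoding gene, ENSG00000280800, was at 1259 and 1531 CPM in the input and at 1523 and 2298 CPM in the pull-down. The groups overlapped (0.45 ± 0.33, edgeR adjusted p = 0.656, and 0.012 in the paired fit), and its log2 fold change after formaldehyde was -0.29. ENSG00000281181 and ENSG00000280614, long noncoding genes of the same length and guanine share on the same chromosome, had log2 fold changes of 0.21 and -0.29. How reads were divided among these genes is uncertain, and so is the gain of ENSG00000280800. EEF1A1, which brings aminoacyl-tRNAs to the ribosome, was at 12158 and 13135 CPM in the input and at 14406 and 16244 CPM in the pull-down (0.28 ± 0.11, edgeR adjusted p = 0.347, and 0.000898 in the paired fit). KRT7 was at 1450 and 1624 against 1926 and 2454 CPM (0.51 ± 0.12, edgeR adjusted p = 0.0929, and 1.06e-06 in the paired fit). EEF2, which moves the ribosome along, was at 1750 and 1805 against 2169 and 2490 CPM (0.39 ± 0.09, edgeR adjusted p = 0.0922, and 5.19e-05 in the paired fit). ENO1, PKM, ACTG1, TUBA1B, KRT17 and ANXA2 had log2 fold changes from 0.27 for ANXA2 to 0.51 for KRT17, and each rose in the paired fit.

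Several lists of metabolic, housekeeping and epithelial genes had medians above the 0.02 of all genes, with few calls in the first fit. Airway epithelial markers, mostly keratins, had a median of 0.42, with KRT8 called and 7 of 10 higher in the paired fit. KRT7, KRT17, KRT5 and KRT18 were higher in the pull-down than in the input of the same pool in both pools, although KRT5 (710 and 951 against 885 and 1307 CPM) overlapped between the groups. Glycolysis had a median of 0.26 over 17 genes, of which 12 rose and 1 fell in the paired fit. The one that fell was GAPDH (4994 and 3914 against 3528 and 3284 CPM, log2 fold change -0.39, adjusted p = 0.000171 in the paired fit and 0.361 in the first), while TPI1 (1380 and 1183 against 1745 and 1671 CPM) rose there. Cholesterol synthesis had a median of 0.21 over 23 genes, with 12 higher and 1 lower in the paired fit, FDPS among the higher. The median was 0.15 for 20 cytosolic aminoacyl-tRNA synthetases (7 higher in the paired fit) and 0.11 for 37 proteasome subunits (16 higher and 2 lower). These counts stand beside 12.3% higher and 6.39% lower among all genes in the paired fit.

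Genes whose products handle oxidized guanine were examined since the antigen is their substrate or ligand. Of 16 tested, 1 fell and none rose in the first fit, and 4 rose and 3 fell in the paired fit. Among all genes 12.3% rose and 6.39% fell in the paired fit. NUDT5, which hydrolyzes oxidized nucleoside diphosphates, was at 105 and 106.5 CPM in the input and at 73.8 and 82.5 CPM in the pull-down (-0.44 ± 0.09, edgeR adjusted p = 0.0434). The binding proteins PCBP1 (-0.48) and PCBP2 (-0.23) fell in the paired fit, and YBX1 (0.24), HNRNPC (0.17), MUTYH (0.43) and NUDT1 (0.24) rose there. MUTYH is a glycosylase for adenine opposite 8-oxoG, and NUDT1 removes oxidized guanine nucleotides from the pool. These are levels of the mRNAs in the pull-down, not of the enzymes.

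Guanine content also varied with the fold change across protein-coding genes. Over 13423 genes with a sequence, the log2 fold change had a Spearman correlation of 0.66 with the guanine share of the transcript, 0.51 in RNA pool 1 and 0.66 in RNA pool 2. Without CA_IP replicate 2 it was 0.434. Among genes of 1000 nt or more, the median log2 fold change was -0.17 for 1350 genes with a guanine share under 20%, 0.06 for 1840 genes at 24% to 26%, 0.31 for 1091 genes at 30% to 32% and 0.37 for 173 genes at 34% or more. In the paired fit 0.0741% of the genes in the lowest of these bins rose, against 51.4% in the highest, and 17.9% against 0% fell. The genes share the libraries and are not independent replicates, so no p-value is given.

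**Figure D5:**
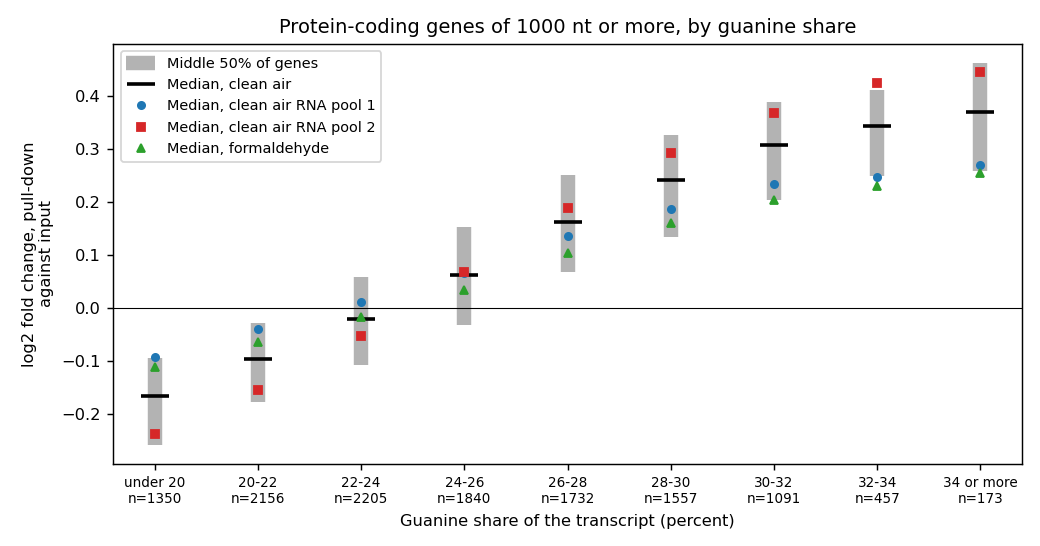
Log2 fold change of pull-down against input (vertical axis) by guanine share of the transcript in percent (horizontal axis, with the number of genes) for protein-coding genes of 1000 nt or more. Gray bars hold the middle 50% of the genes and black lines the clean air median, with medians of RNA pool 1 (blue circles), RNA pool 2 (red squares) and formaldehyde (green triangles). The clean air median climbs from -0.17 to 0.37, and the steps are wider in pool 2 than in pool 1.

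The other bases moved with guanine. For protein-coding genes the correlation was 0.57 with the share of cytosine, -0.59 with adenine and -0.58 with uracil, so the shares of all 4 bases moved with the fold change. Among the 12561 genes of 1000 nt or more the correlation was 0.7 with guanine and 0.62 with cytosine. Within 4 bins of cytosine share that with guanine was 0.45, 0.45, 0.52 and 0.39, and within 4 bins of guanine share that with cytosine was 0.102, 0.172, 0.24 and 0.142 (3140 or 3141 genes each). In 862 genes under 1000 nt the correlation was 0.51 with guanine and 0.105 with cytosine. Whether guanine content itself sets the fold change was not tested. The correlation was 0.58 with the guanine share of the coding sequence alone over 12857 genes.

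Small noncoding RNAs had a median log2 fold change of -2.59, below the median of each of these guanine bins. Over the 122 with a sequence the correlation was 0.32 with guanine share, and over all 127 it was 0.41 with length.

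The pull-down after formaldehyde, which shares no library with that of clean air, was set beside it. There 274 genes were lower (1.55%) and 5 higher (0.0283%), and 267 genes were lower in both, which is 82.4% of the 324 and 97.4% of the 274. All 324 genes lower in clean air had a log2 fold change below 0 after formaldehyde, with a median of -1.12 against -1.22, and 30 of the 31 higher genes were above 0, with a median of 0.36 against 0.47. A single gene was called higher in both treatments, ENSG00000285238. Across genes with a mean of at least 10 CPM in clean air (8969) the log2 fold changes had a Spearman correlation of 0.86, against 0.83 between the 2 clean air pools. Over all 17644 genes these were 0.52 and 0.47. The correlation between treatments used fold changes fitted on 2 libraries a group, and that between pools used differences of single libraries. They are therefore unlike measures.

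The class medians after formaldehyde were -2.61 for spliceosomal snRNAs, -2.44 for H/ACA snoRNAs, -1.01 for histones, -0.67 for mitochondrial mRNAs and 0.36 for airway epithelial markers. The difference between the treatments in pull-down against input was tested directly as an interaction, and no gene passed (smallest edgeR adjusted p = 0.186, with 177 genes at an unadjusted p under 0.05). The paired fit called 23 genes for this difference and DESeq2 on all 8 libraries 3. No gene is called particular to clean air from these fits.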

How the data were processed

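RNA of BEAS-2B cultures was measured in 8 libraries, 2 in each of CA_IN, CA_IP, FA_IN and FA_IP. The authors depleted rRNA, trimmed the paired reads with cutadapt, aligned them with STAR 2.6.0a and quantified Ensembl transcripts on GRCh38 with RSEM 1.2.25. They deposited an expected count per transcript and library, with length and effective length in nt, and did not normalize them. Their 3 tables of DESeq2 comparisons hold log2 fold changes and p-values and were not used.

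Expected counts were summed by gene and rounded, and genes with at least 10 in at least 2 clean air libraries were kept. edgeR 4.0.16 (TMM, quasi-likelihood F test, Benjamini-Hochberg) was run in R 4.3.3 on all 8 libraries in 4 groups. The common dispersion was 0.0188, a coefficient of variation of 0.137. The standard error is the fold change divided by the root of F. CPM used the TMM factors, which were 0.955 to 0.967 for CA_IN and 1.05 to 1.08 for CA_IP. The fits were checked on simulated counts with known changes.

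Input and pull-down of a treatment were split from the same RNA pool according to the study's methods, and the deposited names carry the pool number. Deviations from the group means of same-numbered libraries correlated at 0.408 in clean air and 0.296 in formaldehyde (17644 genes), so a fit with the pool as a block is given beside the main counts of the classes and calls it changes.

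Symbols, classes, coordinates and transcript sequences came from GENCODE 44 by gene and transcript ID, which matched 17526 of the 17644 genes. The most abundant transcript stood for its gene. A guanine share was found for 98.4% of the genes, and 43.4% had a transcript of the same length as in the deposited tables, so the composition of the others is that of a later model.

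Members, gene lists and tests were chosen with earlier results of these data known. Genes were named where they were among the 10 called, non-overlapping genes with the highest or the lowest fold change at a mean of at least 5 CPM, among the 10 that gained or lost most CPM, among the 4 most abundant of a class, or in the lists of markers and of proteins that handle oxidized guanine. Named exceptions are marked. Reads carry no molecular identifiers, so intervals and floors describe counting error alone. Alternatives were other scalings, filters, DESeq2 1.42.0, an effective length offset, the pool block and each library left out.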

Additional observations from a re-analysis of the deposited data

Results flagged for a closer look

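The difference between clean air and formaldehyde in pull-down against input passed the threshold for 3 of the named genes when the RNA pool was a block, and for none without it. RNU1-1, whose values are shared by identical copies, was at 1.9 and 3.13 CPM in CA_IP and at 7.19 and 22.3 CPM in FA_IP. Its log2 fold change was lower in clean air by -2.85 (edgeR adjusted p = 3.72e-05 with the block and 1 without it). The sum over 13 U1 genes and variants does not depend on how reads were divided among copies. Its level was 861 and 996 CPM in CA_IN, 82.5 and 148 CPM in CA_IP, 859 and 680 CPM in FA_IN and 94.3 and 190 CPM in FA_IP. The pull-down levels of the sum lay closer together than those of RNU1-1, but its inputs differed as well. Whether pull-down against input differed between the treatments was not tested for the sum. For RNVU1-7 the difference was -1.13 (edgeR adjusted p = 3.12e-06 with the block and 1 without it), at 10.8 and 13.5 CPM in CA_IP and 24.5 and 26.4 CPM in FA_IP. For SNORD3A it was -0.46 (edgeR adjusted p = 0.0107 with the block and 1 without it), at 999.8 and 1146 CPM in CA_IP and 1622 and 1455 CPM in FA_IP. RNVU1-7 is a variant of U1, so its reads are uncertain as well. The cause of these differences was not tested.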

How the results depend on the processing

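With 2 libraries a group the count of higher genes depended on the model far more than that of lower genes. Against 31 higher genes, library size scaling gave 857, the replicate block (RNA pool) 2162, no filter 148, DESeq2 on 8 libraries 101, the effective length offset 53, a filter of 10 in all 4 libraries 20, RLE size factors 16, DESeq2 on 4 libraries 15 (12 with the filter of edgeR, added after seeing the data), TMM on protein-coding genes 10, a mean count of 50 or more 10 and edgeR on 4 libraries 6. Leaving out 1 clean air library gave 3 to 16. Against 324 lower genes, no filter gave 539 and the replicate block 1127, and leaving out 1 clean air library gave 189 (without CA_IP replicate 1) to 249. The other settings gave 274 to 405. The interaction gave 3 genes with DESeq2 on 8 libraries, 50 without a filter, 23 with the replicate block and 0 to 1 with 1 library left out. Genes lower after formaldehyde were 514 without a filter and 861 with the replicate block, against 274. The correlation between guanine share of the transcript and log2 fold change was 0.659, and 0.434 (without CA_IP replicate 2) to 0.5954 with 1 clean air library left out. RN7SL1, at -0.09, changed sign with library size scaling (0.0587), and ran from -0.2307 to 0.0427 (without CA_IP replicate 1) with 1 library left out. None of the named genes called in the first fit changed direction in any setting. Of 50 such calls, the replicate block kept 50, leaving out 1 library lost 14 to 16, edgeR on 4 libraries 15 and DESeq2 on 4 libraries 8. The cause of these changes was not tested, except that leaving out libraries or genes also changes the number tested.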

Other observations

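Gene groups outside the classes above had medians near 0. The 477 zinc finger genes named ZNF had a median log2 fold change of -0.04 with 0 calls, and the 56 chromatin-modifying enzymes of 0.05 with 0 calls (25 and 6 higher, 15 and 0 lower in the paired fit). Collagens (31 genes, median 0.06), laminins and fibronectin (11 genes, 0.05), giant cytoskeletal and scaffold genes (22 genes, -0.05) and p53 with its targets (25 genes, 0.13) had 0 calls each in edgeR without the block. With the block these 4 lists held 2, 2, 1 and 7 higher genes and 0, 0, 3 and 2 lower ones. Over all genes tested, edgeR called 0.176% higher and 1.84% lower without the block, and 12.3% and 6.39% with it. A pair of lists held 1 lower gene each, the NRF2 targets (24 genes, 0.09) and the nuclear long noncoding RNAs and snoRNA hosts (24 genes, -0.15), in which MALAT1 was at 3148 and 2702 CPM in the input and at 2854 and 2242 CPM in the pull-down. In the paired fit the NRF2 targets held 2 lower and 4 higher genes and the nuclear RNAs and hosts 8 lower. Mitochondrial ribosomal proteins (77 genes, 0.06) held 6 lower genes and 1 higher, and 12 lower and 22 higher in the paired fit. Long noncoding RNAs as a class (2301 genes, -0.06) held 10 lower genes and 1 higher, and 78 lower and 36 higher in the paired fit.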
